A study of Homo sapiens with 4 samples.

Results

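The genes described here are 10 noncoding RNA genes transcribed by RNA polymerase III (Pol III), namely RMRP, RPPH1, RN7SK, RN7SL1, RN7SL2, RNU6ATAC, VTRNA1-1, VTRNA1-2, VTRNA1-3 and VTRNA2-1. They were chosen by symbol, by a rule that uses no counts although earlier results of these data were known, from a table of 60708 genes, where they take 11 entries because RN7SK has 2. TT-seq, which labels new RNA briefly with 4-thiouridine (4-SU), pulls down the labeled fragments and sequences them, was performed on HEK293 cells, a human embryonic kidney line. All cells carried an RPB1 degron, a tag through which auxin destroys the endogenous largest subunit of RNA polymerase II (Pol II), and all received auxin for 48 h, starting 48 h after transient transfection of a plasmid encoding another RPB1. In the 52X WT group this RPB1 had a wild-type C-terminal domain (CTD) of 52 repeats, in the 52X T4A group every repeat carried T4A, and each group had 2 libraries, made after 20 min of 4-SU. Each group is a transiently transfected population, no library without auxin or without a plasmid was analysed here, and the labels do not say whether the 2 libraries of a group came from separate cultures, so p-values measure the spread between these libraries, which may be technical.

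Pol III makes short, abundant RNAs and, unlike Pol II, has no CTD, so its genes serve as a control in a study of CTD mutants. RMRP and RPPH1 are the RNA subunits of RNase MRP and RNase P, which process ribosomal RNA and tRNA precursors, and RN7SK holds the elongation kinase P-TEFb in an inactive complex. RN7SL1 and RN7SL2 encode 7SL, the RNA core of the signal recognition particle, RNU6ATAC encodes the U6atac snRNA of the minor spliceosome, and the vault RNAs (VTRNA) are components of vault particles and RNA regulators.

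Pol III reaches these genes through different promoters. The vault RNA genes carry an A box and a B box inside the transcribed sequence, the elements that TFIIIC binds in tRNA genes, whereas RNU6ATAC, RN7SK, RMRP and RPPH1 depend on elements upstream of the RNA. The sequences of the vault RNAs and of RNU6ATAC are from the GENCODE v44lift37 transcripts. They are shown because short length and, among the VTRNA1 genes, shared stretches bear on what these counts can measure. Capitals mark matches to part of the A box (AGCTCAGNG) and part of the B box (GTTCGANNC), both searched on the strand of the RNA.
VTRNA1-1: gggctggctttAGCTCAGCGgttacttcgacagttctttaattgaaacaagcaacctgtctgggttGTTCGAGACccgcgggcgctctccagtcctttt
VTRNA1-2: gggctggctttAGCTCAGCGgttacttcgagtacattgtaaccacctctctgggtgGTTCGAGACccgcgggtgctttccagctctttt
VTRNA1-3: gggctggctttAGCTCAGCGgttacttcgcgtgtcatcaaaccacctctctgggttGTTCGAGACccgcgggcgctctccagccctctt
VTRNA2-1: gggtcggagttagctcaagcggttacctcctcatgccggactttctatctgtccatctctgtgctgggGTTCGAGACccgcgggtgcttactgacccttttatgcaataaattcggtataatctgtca
RNU6ATAC: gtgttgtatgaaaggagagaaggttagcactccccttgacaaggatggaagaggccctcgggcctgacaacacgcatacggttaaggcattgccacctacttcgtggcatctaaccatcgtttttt

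The 3 VTRNA1 genes matched both motifs, with the A box part at base 12 in each and the B box part at base 67 of VTRNA1-1 and at base 57 of VTRNA1-2 and VTRNA1-3. VTRNA2-1 matched the B box part, at base 69, and not these letters of the A box part, and RNU6ATAC matched neither. Of the 8950 GENCODE transcripts of up to 150 nt, 17 (0.190%) held the A box part, 25 (0.279%) held the B box part and 4 held both, the 3 VTRNA1 genes among them. Whether this set includes tRNA genes was not examined, so the shares describe these transcripts only. On the opposite strand the parts were found in 19 (0.212%) and 10 (0.112%) of these transcripts and in 0 of the genes shown. The motifs did not overlap each other. The VTRNA1 RNAs were 81.8% identical between VTRNA1-1 and VTRNA1-2, 83% between VTRNA1-1 and VTRNA1-3, and 87.8% between VTRNA1-2 and VTRNA1-3, with a longest shared stretch of 30, 34 and 29 nt. VTRNA2-1 shared about 55% of aligned positions with each (54.96% to 55.15%). Reads had to align uniquely to be counted, so fragments that lie within the shared stretches may be missing from these genes.

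The counts summed to between 33188536 and 45605027 per library. Log2 CPM, the counts scaled to a library of 1000000 counts, correlated at 0.991 between the WT libraries and at 0.978 between the T4A libraries. Of the HEK293 markers, LIN28B (181 to 202.5 CPM), NEFL (55.7 to 77.0) and VIM (41.2 to 50.5) were well detected and PAX2 was low (1.75 to 2.89), whereas NEFM and NEFH stayed below 0.5 CPM. Of the markers of other cells, ALB reached 1.14 CPM, PTPRC, CD3E and KRT5 stayed below 1 CPM, and PECAM1 was not matched. POLR2A, the gene of RPB1, had 9640 and 8720 normalized CPM in WT replicates 1 and 2 and 7492 and 8083 in T4A replicates 1 and 2, where normalized CPM are CPM after TMM scaling. Its level was thus lower in both T4A libraries, with a log2 fold change of −0.24 ± 0.25 (SE; adjusted p = 0.659, edgeR), and reads from the endogenous gene and from the plasmids cannot be told apart. All values are relative to the other labeled RNA of a library, because no spike-in is named in the labels, and in bulk samples fewer cells and less RNA per cell cannot be told apart.

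Of the 10 genes, 5 could not be measured, and these included some of the best known Pol III RNAs. RMRP, RPPH1, RN7SK and RN7SL2 were listed at 0 in all 4 libraries, and VTRNA2-1 had 0 counts in 3 libraries and 3 counts in T4A replicate 1. With 33188536 to 45605027 counts per library, a listed 0 allows up to 0.0658 to 0.0904 CPM (3 counts, counting error only) of uniquely counted reads, which says nothing of reads that were left uncounted. In the table, each of these 5 genes shares its bases with another entry of its own strand.

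RMRP (chr9:35657754-35658017, minus strand, GRCh38) lies wholly inside a second entry, ENSG00000269900, of 268 bp, which was also at 0. RN7SK (chr6:52995620-52995950, plus strand) is listed under 2 identifiers that share 328 bases, which leaves 3 bases of the longer entry free, and both were at 0. RPPH1 (chr14:20343075-20343407, minus strand) lies inside ENSG00000259001, of 638 bp. The latter held 2 and 13 counts in WT and 7 and 13 counts in T4A. These 3 genes thus had almost no base at which a read would belong to a single entry.

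RN7SL2 (chr14:49862550-49862849, minus strand) lies inside ENSG00000282885, an entry of 3151 bp with 45 and 50 counts in WT and 38 and 32 counts in T4A. VTRNA2-1 (chr5:136080470-136080597, minus strand) shares 101 of its 128 bases with ENSG00000278815, listed at 0, and has 27 bases of its own. VTRNA2-1 was the only gene of the 5 with a count, and its 3 counts in 1 library give no fold change.

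**Figure D1:**
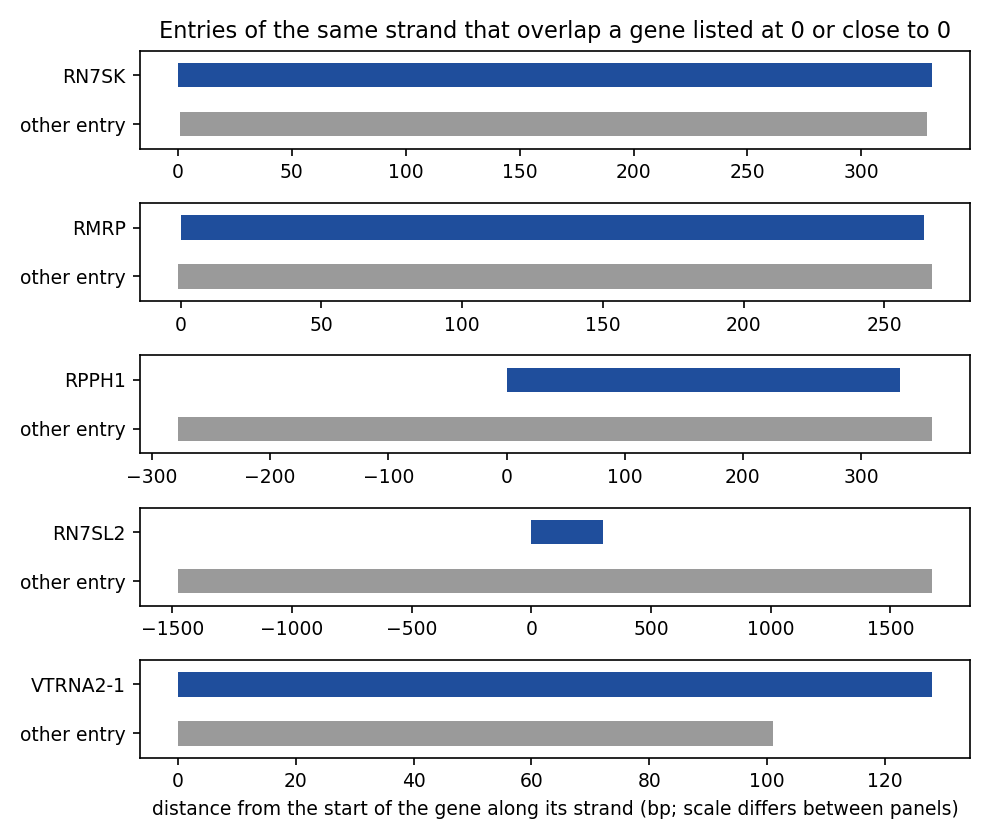
Map of the 5 genes listed at or near 0 (blue) and the other entry of the same strand that overlaps each (gray), drawn to scale as distance in bp from the start of the gene along its strand, with a different scale in each panel. The other entry covers RMRP, RPPH1 and RN7SL2 whole, leaves 3 bases of RN7SK free, and leaves 27 bases of VTRNA2-1 free.

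The same was true of the whole table. All 9191 genes that lie wholly inside another gene of their strand were listed at 0 in all 4 libraries, as were 27.0% of the 42622 genes that overlap no gene of their strand. Among genes of up to 400 bp, 4564 of 4564 genes inside another gene were at 0, compared with 5017 of 7465 (67.2%) of those that overlap none. How overlapping entries were handled is not given in the sources used here and is read from these values. A listed 0 of RMRP, RPPH1, RN7SK or RN7SL2 is therefore not taken here as a measurement of its transcription. Reads within a gene on the other strand were counted, since RN7SL1 lies inside RPS29 on the opposite strand and holds more counts than RPS29 does. The genes next to the unmeasured genes were read normally. PARP2, which starts 208 bp from RPPH1 on the other strand, had 24.1 and 21.3 normalized CPM in WT and 24.2 and 22.9 in T4A (log2 fold change 0.05, adjusted p = 0.856), and GSTA4, 316 bp from RN7SK, had 10.0 and 9.66 in WT and 9.41 and 9.95 in T4A (−0.02, adjusted p = 0.951). CCDC107, 273 bp from RMRP, had 1.89 and 1.86 normalized CPM in WT and 1.49 and 1.62 in T4A (−0.27, adjusted p = 0.663). None of these neighbors passed the threshold.

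The other 5 genes, RN7SL1, RNU6ATAC, VTRNA1-1, VTRNA1-2 and VTRNA1-3, overlap no gene of their strand, had a mean of at least 10 counts and entered the test. Per kilobase of gene, RN7SL1 was highest, at 845 and 807 CPM per kb in WT replicates 1 and 2 and 1140 and 999.7 in T4A replicates 1 and 2. VTRNA1-3 followed with 572 and 339.8 in WT and 528 and 503 in T4A. RNU6ATAC had 116 and 45.1 CPM per kb in WT and 121 and 63.1 in T4A. RN7SL1 and VTRNA1-3 thus held the first and second place in every library, with no overlap between the ranges of these 3 genes. VTRNA1-1 had 82.1 and 19.5 CPM per kb in WT and 90.1 and 39.9 in T4A, and VTRNA1-2 had 26.6 and 9.12 in WT and 30.9 and 13.5 in T4A. The order RNU6ATAC, VTRNA1-1, VTRNA1-2 was the same within each library, yet across libraries the range of VTRNA1-1 overlapped that of both neighbors in the order. The 3 VTRNA1 genes lie on the plus strand of chromosome 5, 7552 bp and 7145 bp apart, and the one farthest downstream had the highest level. For comparison, ZMAT2, the nearest gene upstream of VTRNA1-1, had 4.83 to 5.76 CPM per kb over its whole span, and RPS29 had 5.70 to 7.28. Such a span includes introns, and a Pol III gene of this kind has none, so these levels are a description only.

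**Figure D2:**
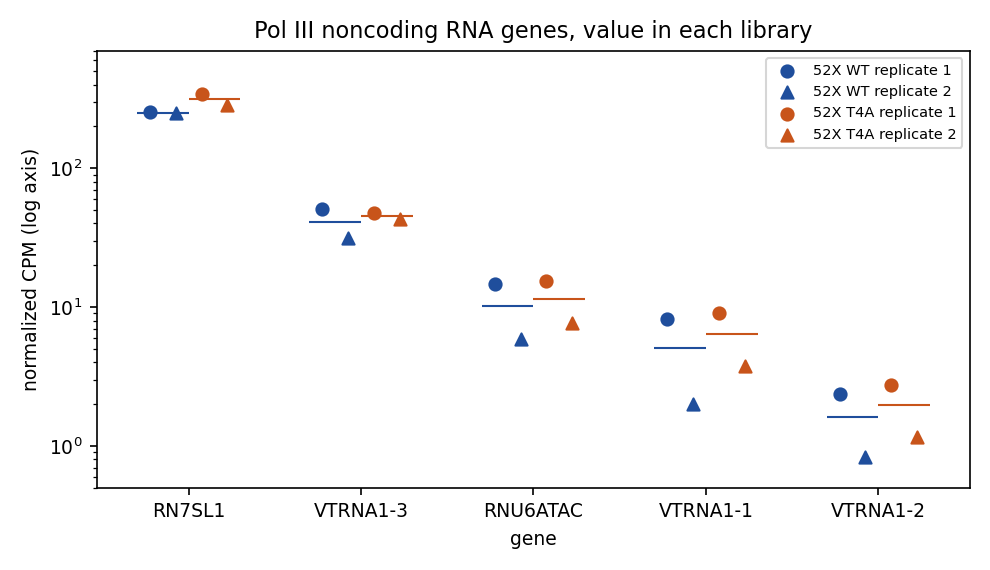
Normalized CPM (log axis) of the 5 measured genes in each library, with circles for replicate 1, triangles for replicate 2, blue for 52X WT, orange for 52X T4A and horizontal lines for the mean of each group. RN7SL1 is the only gene whose T4A points (344 and 287) both lie above its WT points (253 and 249.7), and in every gene the triangle lies below the circle of its color.

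To determine whether Pol III transcripts changed when the CTD of the transfected RPB1 carried T4A, the 2 groups were compared. None of the 5 genes passed an adjusted p-value of 0.05 with a fold change above 1.5, by edgeR or by DESeq2. DESeq2 gave no adjusted p-value for VTRNA1-1 and VTRNA1-2, which therefore could not pass there. By edgeR 1 gene, RN7SL1, had an unadjusted p-value below 0.05. No gene did so after scaling to the mitochondrially encoded genes, and with the replicate block it was VTRNA1-1 and not RN7SL1. Over all 23321 tested genes 1 gene (0.00429%) passed the threshold, and 15.5% had an unadjusted p-value below 0.05, 7.45% with T4A higher and 8.02% with T4A lower. Both T4A libraries lay above both WT libraries for 1 of the 5 genes, again RN7SL1, and for 24.8% of all tested genes. The counts for the 5 genes are thus too few to be set apart from this background. Their median log2 fold change was 0.29, beside −0.00076 over all tested genes. The 140 tested genes of up to 150 bp outside the 10 genes had a median of 0.15, with 91 above 0. A shift to higher values in T4A was thus also seen in other short genes, and the difference was not tested. The median of the 5 genes turned to −0.31 without WT replicate 2 and to −0.39 without T4A replicate 1.

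RN7SL1 (ENSG00000276168, chr14:49586580-49586878, plus strand) had 9914 and 11006 counts in WT replicates 1 and 2 and 11541 and 9920 in T4A replicates 1 and 2. These are 253 and 249.7 normalized CPM in WT, with a mean of 251 ± 2.55 (SD, n = 2), and 344 and 287 in T4A, with a mean of 315 ± 40.2 (SD, n = 2). Both T4A libraries were higher than both WT libraries, and the WT libraries lay much closer together than the T4A libraries. The log2 fold change was 0.33 ± 0.11 (SE; 95% interval 0.07 to 0.58; adjusted p = 0.256, edgeR), which did not pass the threshold. It fell to 0.20 without T4A replicate 1 and rose to 0.44 without T4A replicate 2. With DESeq2 the adjusted p-value was 0.027, with a fold change below 1.5. Over all alternatives the log2 fold change of RN7SL1 lay between 0.20 and 0.44. Where all 4 libraries were kept, its adjusted p-value lay between 0.027 (DESeq2) and 0.741 (edgeR), the latter after scaling to the mitochondrially encoded genes.

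The gene that encloses RN7SL1 moved in the same direction. RPS29, a ribosomal protein gene on the other strand, had 161 and 170 normalized CPM in WT and 207 and 189 in T4A, with a log2 fold change of 0.26 ± 0.09 (SE; adjusted p = 0.271). Over its whole span RPS29 had 5.70 to 7.28 CPM per kb, beside 807 to 1140 CPM per kb for RN7SL1. The part of RPS29 in the value of RN7SL1 was not tested. RN7SL1 also has many near copies, since 593 RN7SL pseudogenes are listed, of which 127 had a count, 584 to 658 counts per library in all. RN7SL3, another gene of the family, had 113 and 116 counts in WT and 123 and 73 in T4A (log2 fold change 0.07, adjusted p = 0.931). RN7SL1 thus held most of the uniquely counted 7SL reads, and how many reads were lost because they align to RN7SL1 and RN7SL2 alike is unknown, so its count is uncertain.

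RNU6ATAC (ENSG00000221676, chr9:134164439-134164564, minus strand) had 573 and 259 counts in WT replicates 1 and 2 and 516 and 264 in T4A replicates 1 and 2. The normalized levels were 14.6 and 5.88 CPM in WT (10.3 ± 6.197, SD, n = 2) and 15.4 and 7.64 in T4A (11.5 ± 5.47, SD, n = 2). Replicate 1 was the higher library in each group, and the groups overlapped. The log2 fold change of 0.17 ± 0.42 (SE; 95% interval −0.80 to 1.13; adjusted p = 0.866) was smaller than the spread between replicates. It became −0.38 without WT replicate 2 and −0.41 without T4A replicate 1, so its sign depended on single libraries.

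VTRNA1-1 (ENSG00000199990, chr5:140711275-140711373) had 319 and 88 counts in WT and 302 and 131 in T4A, or 8.15 and 1.996 normalized CPM in WT and 8.997 and 3.79 in T4A. On the log2 scale, the WT libraries lay farther apart for this gene than those of either group did for any other of the 5 genes. The log2 fold change was 0.34 ± 0.58 (SE; 95% interval −0.995 to 1.67; adjusted p = 0.801). It rose to 1.66 without WT replicate 1 and to 0.83 without T4A replicate 2. It became −0.38 without WT replicate 2 and −0.39 without T4A replicate 1. These fits leave 1 library in a group, so only their effect sizes are given. Under the edgeR alternatives that kept all 4 libraries, the adjusted p-value lay between 0.331 and 0.808. The sign and size of the estimate therefore depended on single libraries.

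VTRNA1-2 (ENSG00000202111, chr5:140718925-140719013) had the fewest counts, 93 and 37 in WT and 93 and 40 in T4A, or 2.38 and 0.839 normalized CPM in WT and 2.77 and 1.16 in T4A. Its log2 fold change was 0.29 ± 0.54 (SE; 95% interval −0.94 to 1.53; adjusted p = 0.812), and it became −0.31 without WT replicate 2 and −0.45 without T4A replicate 1. Raw counts in the replicate 1 libraries were the same in both groups, but these libraries differed in depth, with 39249066 counts in WT and 33853507 in T4A.

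VTRNA1-3 (ENSG00000202515, chr5:140726158-140726246) had 1998 and 1379 counts in WT and 1591 and 1487 in T4A. The levels were 51.0 and 31.3 normalized CPM in WT (41.2 ± 14.0, SD, n = 2) and 47.4 and 43.0 in T4A (45.2 ± 3.10, SD, n = 2), so that both T4A libraries lay between the WT libraries. With a log2 fold change of 0.14 ± 0.20 (SE; 95% interval −0.32 to 0.59; adjusted p = 0.760) it had the narrowest interval of the vault RNA genes, and it became −0.20 without WT replicate 2. For VTRNA1-1, VTRNA1-2 and RNU6ATAC the intervals reach beyond a log2 change of 1 on the higher side. A change of that size was thus within the error of these libraries in the main fit, which has no replicate block. With the block the log2 fold changes were 0.51 ± 0.25 for VTRNA1-1, 0.33 ± 0.36 for VTRNA1-2 and 0.22 ± 0.21 for RNU6ATAC (SE).

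The summed counts of the 10 genes come from the 5 measured genes, apart from 3 counts of VTRNA2-1 in T4A replicate 1. Their share was 329 and 279.99 CPM in WT replicates 1 and 2 and 415 and 357 in T4A replicates 1 and 2. The 95% Wilson intervals, which cover counting error only, were 323 to 334, 275 to 285, 408 to 422 and 350.4 to 363. Both T4A libraries were higher, and RN7SL1 made up most of this share. Without RN7SL1 and RN7SL2 the share was 76.0 and 38.7 CPM in WT and 74.0 and 57.9 in T4A, and the groups overlapped. The vault RNA genes alone held 61.4 and 33.0 CPM in WT and 58.8 and 49.96 in T4A. No test was made of these shares.

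**Figure D3:**
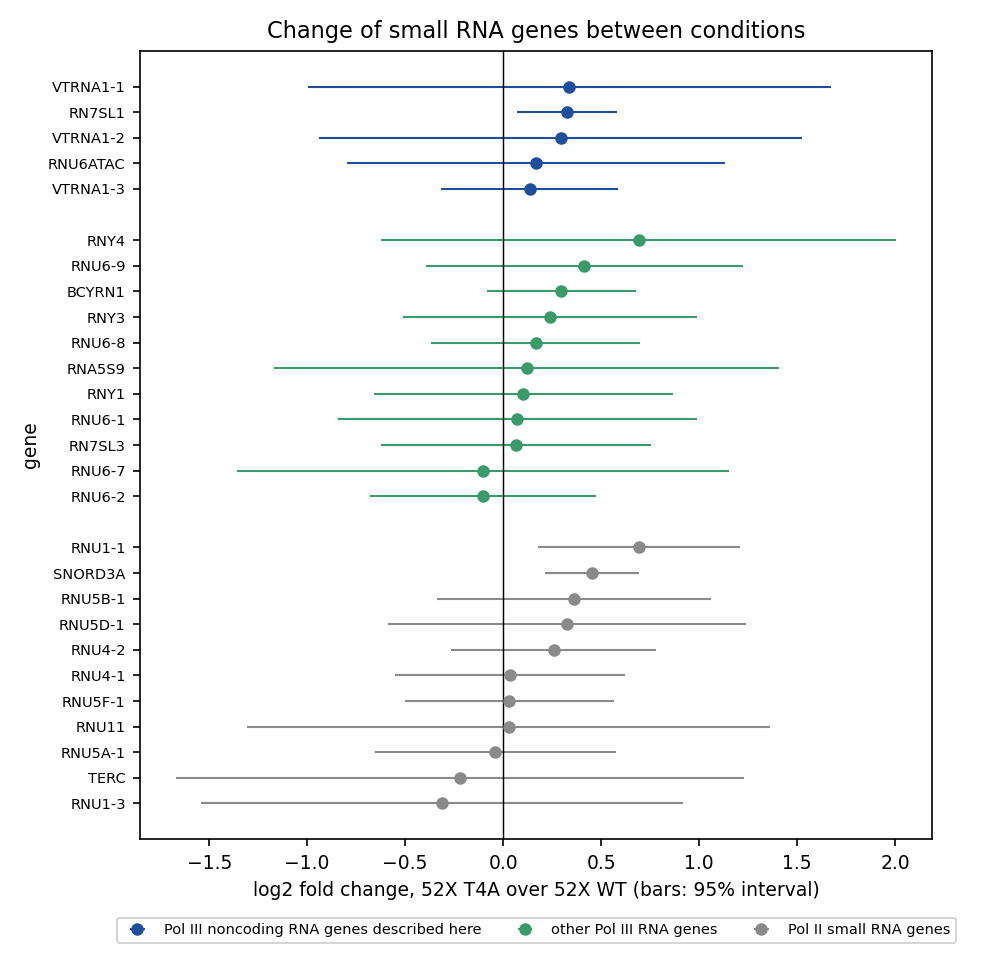
Log2 fold change of 52X T4A over 52X WT with its 95% interval (edgeR) for the 5 genes described here (blue), 11 other Pol III RNA genes (green) and 11 Pol II small RNA genes (gray). All 5 blue points lie above 0, from 0.14 to 0.34, and of their intervals only that of RN7SL1 (0.07 to 0.58) leaves out 0.

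In contrast to the groups, the replicate numbers separated the libraries for RNU6ATAC and the VTRNA1 genes. The log2 ratio of replicate 1 over replicate 2 was 2.003 in WT and 1.24 in T4A for VTRNA1-1, 1.45 and 1.22 for VTRNA1-2, and 1.31 and 1.005 for RNU6ATAC. VTRNA1-3 had smaller ratios of 0.71 and 0.14, and RN7SL1, the longest of the 5, had 0.02 and 0.26. Replicate 1 was higher in both groups for 5 of 5 genes, beside 25.6% of all tested genes, and the medians were 1.31 in WT and 1.005 in T4A, beside 0.0088 and 0.054 over all tested genes.

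The same order of libraries was seen in Pol III RNAs outside the 10 genes. Replicate 1 was higher in both groups for 9 of 11 other Pol III RNA genes, with medians of 0.90 in WT and 0.51 in T4A. RNA5S9, a 5S ribosomal RNA gene, had 282 and 96 counts in WT and 250 and 94 in T4A. RNY4, a Y RNA gene, had 229 and 82 in WT and 314 and 106 in T4A, and RNU6-1, which encodes the U6 snRNA, had 243 and 111 in WT and 188 and 123 in T4A. These genes, like RNU6ATAC and VTRNA1-1, had their lower counts in the replicate 2 libraries of both groups. Among Pol III RNA genes of up to 150 bp, the 10 genes included, 12 of 13 were higher in replicate 1 in both groups, with medians of 1.29 and 0.65. For the 3 Pol III RNA genes of 150 to 400 bp, RN7SL1, RN7SL3 and BCYRN1, the medians were 0.021 and 0.26. Pol II small RNA genes of up to 150 bp had medians of 0.80 and 0.43 (5 of 7 higher in both) and those of 150 to 1000 bp 0.35 and 0.021 (2 of 4). All other tested genes of up to 150 bp had medians of 0.37 and 0.074 (45 of 124, 36.3%), and other genes over 1000 bp had 0.0074 and 0.057 (25.6%). The medians were thus higher in the short RNA genes of both polymerases than in the longer genes, a difference that was not tested, and over all tested genes same-numbered libraries did not deviate together (correlation 0.0057). Its cause was not tested, and the labels name no batch.

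**Figure D4:**
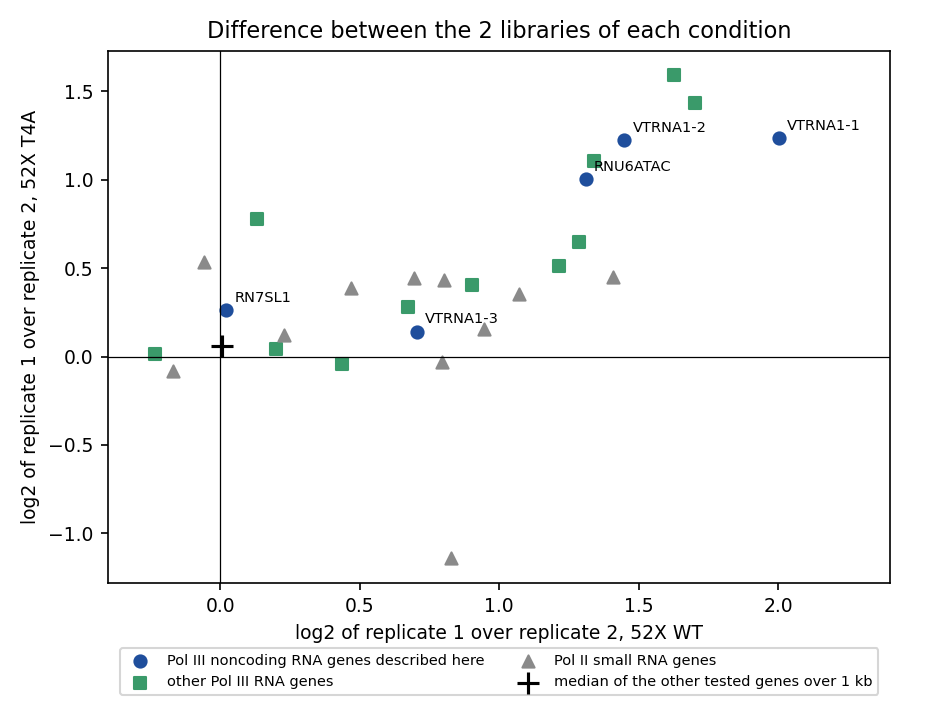
Log2 ratio of normalized CPM of replicate 1 over replicate 2 in 52X WT (horizontal axis) and in 52X T4A (vertical axis) for the 5 genes described here (circles), other Pol III RNA genes (squares) and Pol II small RNA genes (triangles), with a cross at the median of other tested genes over 1000 bp (0.0074 and 0.057). Most points lie to the upper right of the cross, and VTRNA1-1 lies farthest right at 2.003 and 1.24.

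The other Pol III RNA genes gave no call between the groups either. Of 15 listed genes 13 were found and 11 tested, and 0 of 11 had an unadjusted edgeR p-value below 0.05 in either direction, with a median log2 fold change of 0.12. RNY1 had 1470 and 713 counts in WT and 1138 and 821 in T4A (log2 fold change 0.10), and BCYRN1, the primate BC200 RNA, had 281 and 372 in WT and 324 and 330 in T4A (0.30, adjusted p = 0.416). RNA5S1 and RNA5S17 were listed at 0 although neither lies inside another gene of its strand. Both belong to the repeated 5S gene family.

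Small RNA genes transcribed by Pol II formed a second comparison. The table holds 19 such genes, of which 8 were listed at 0, and all 8 lie wholly inside another gene of their strand. Of the 11 tested genes 2 had an unadjusted p-value below 0.05, both with T4A higher. They were SNORD3A, the U3 small nucleolar RNA (104 and 88.8 normalized CPM in WT, 138 and 126 in T4A; log2 fold change 0.45 ± 0.10, adjusted p = 0.186), and RNU1-1, a U1 snRNA gene (6.11 and 4.40 in WT, 9.62 and 7.35 in T4A; 0.69 ± 0.23, adjusted p = 0.249). Neither passed the threshold, and the difference between the Pol II and Pol III groups of genes was not tested. Several U1 and U6 genes are listed, and reads that align to several of them alike were not counted. How many such reads were lost is unknown, so the counts of RNU1-1 and RNU6-1 are uncertain.

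The genes of the Pol III machinery and of the protein partners of these RNAs, all transcribed by Pol II, showed no call. Together with the small RNA genes above, 13 of 93 tested genes (14.0%) had an unadjusted p-value below 0.05, near the 15.5% of all tested genes. These were 6 with T4A higher and 7 with T4A lower, and the split turned to 11 and 5 with library size in place of TMM. Of 13 Pol III subunit genes 1 was higher and 1 lower in T4A at that level, with a median log2 fold change of −0.078. POLR3A and POLR3B, the catalytic subunits, had log2 fold changes of −0.12 ± 0.09 (adjusted p = 0.530) and −0.17 ± 0.10 (adjusted p = 0.418). POLR3E, a Pol III-specific subunit, was lower in T4A (58.6 and 57.0 normalized CPM in WT, 41.6 and 48.6 in T4A; −0.36 ± 0.11, adjusted p = 0.232). POLR1C, shared with Pol I, was higher (0.30 ± 0.11, adjusted p = 0.277). The subunit genes thus did not move in a single direction.

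Among 20 genes of transcription factors and regulators, 1 was higher and 3 were lower in T4A at an unadjusted p-value below 0.05, with a median of −0.063. BRF1 and BRF2, the TFIIB-related factors for internal and upstream promoters, had log2 fold changes of −0.08 (adjusted p = 0.808) and −0.13 (adjusted p = 0.695), and BDP1, their partner in TFIIIB, had −0.07 (adjusted p = 0.763). GTF3A, the 5S-specific factor TFIIIA, had −0.32 (adjusted p = 0.283). Of the TFIIIC genes, GTF3C1 had −0.21 (adjusted p = 0.304) and GTF3C4 had 0.24 (adjusted p = 0.311). SNAPC4, of the complex that binds the upstream element, had −0.33 ± 0.24 (adjusted p = 0.513), and SSB, the La protein that binds the U-rich ends of Pol III RNAs, had 0.09 (adjusted p = 0.644). MAF1, a repressor of Pol III, had 306 and 324 counts in WT and 134 and 217 in T4A, a log2 fold change of −0.56 ± 0.23 (adjusted p = 0.310). MAF1 thus had the lowest estimate of the genes named here from this list, and both its T4A libraries were below both WT libraries. The latter was also seen for 5759 of all 23321 tested genes.

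No gene of a protein partner passed the threshold either. Of 7 genes for 7SK partners, 0 had an unadjusted edgeR p-value below 0.05, with LARP7 at −0.15 (adjusted p = 0.513), MEPCE, the 7SK capping enzyme, at −0.18 (adjusted p = 0.481) and HEXIM1, the P-TEFb inhibitor, at 0.23 (adjusted p = 0.342). Of 10 tested genes for RNase P and MRP proteins, 2 were lower at that level, POP1 (−0.29, adjusted p = 0.250) and RPP25L (−0.57, adjusted p = 0.304), and the median was −0.105. None of the 8 genes for signal recognition particle proteins and receptors and none of the 8 for minor spliceosome proteins had an unadjusted edgeR p-value below 0.05, with medians of −0.0083 and 0.0041. Of 5 genes for vault RNA partners, 3 did, 2 with T4A higher and 1 with T4A lower, a larger share than the 15.5% of all tested genes, from a list of 5. MVP, the major vault protein, had 64 and 76 counts in WT and 87 and 111 in T4A (0.79 ± 0.27, adjusted p = 0.252). NSUN2, which methylates vault RNAs, had 0.26 (adjusted p = 0.278), and PARP4, another vault protein, had −0.26 (adjusted p = 0.254). None of these 3 genes passed the adjusted threshold, and their estimates differed in sign.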

How the data were processed

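TT-seq was analysed in 2 libraries each of 52X WT and 52X T4A cells, grouped by their labels. The authors deposited raw counts per gene, made with featureCounts from uniquely aligned reads, and counted over the whole span of each of 60708 genes. The submitters' processing notes name cutadapt 4.6, STAR 2.7.11b and GRCh38. The featureCounts version, annotation and strand setting are not given in the sources used here, and the labels describe strand-specific (dUTP) libraries. Symbols came from GENCODE v44lift37 by stable identifier (58700 genes) and, for 6 genes including RN7SL1, RN7SL2 and RPPH1, from RefSeq GRCh38.p14 positions within 10 bp at both ends. Genes were tested with edgeR 4.0.16 (R 4.3.3) with TMM normalization (factors 0.967 to 1.04), its default filter on low counts, the quasi-likelihood test and Benjamini-Hochberg adjustment over 23321 genes. An adjusted p-value below 0.05 with a fold change above 1.5 counted as a call. DESeq2 1.42.0, other scalings, other filters, a replicate block and leaving out each library were alternatives. The edgeR script was tested on simulated data. The rule for the 10 genes uses no counts, but they and the gene lists were chosen with earlier results of these data known. Named genes were the 10 genes, POLR2A, preset genes of the Pol III pathway, up to 2 genes per list and direction with the lowest unadjusted p-value below 0.05, and neighboring genes. Wilson intervals and the limit of 3 counts cover counting error only, whereas intervals of fold changes include the spread between libraries.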

Additional observations from a re-analysis of the deposited data

How the results depend on the processing

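RN7SL1 kept its direction under all 11 alternatives, while VTRNA1-1, VTRNA1-2, VTRNA1-3 and RNU6ATAC did so under every alternative that kept all 4 libraries. With 1 library left out in turn, where the lone library is assumed to vary like the other group, the number of called Pol III noncoding RNA genes was 0 to 1, their median log2 fold change −0.39 to 0.96, and the log2 fold change was −0.41 to 0.96 for RNU6ATAC, −0.39 to 1.66 for VTRNA1-1, −0.45 to 1.21 for VTRNA1-2 and −0.20 to 0.52 for VTRNA1-3. Reversals came without WT replicate 2 (RNU6ATAC −0.38, VTRNA1-1 −0.38, VTRNA1-2 −0.31, VTRNA1-3 −0.20, median −0.31) and without T4A replicate 1 (RNU6ATAC −0.41, VTRNA1-1 −0.39, VTRNA1-2 −0.45, median −0.39), the libraries in which the short RNAs were lowest in WT and highest in T4A. Over all tested genes, the calls rose from 1 to 88 with DESeq2 (25 higher), 65 without a filter on low counts (25 higher) and 433 with the replicate block (177 higher), and the cause was not tested. The replicate block called 0 of the 5 genes and moved VTRNA1-1 to 0.51 (adjusted p = 0.331, edgeR). The numbers were not taken as pairs because same-numbered libraries correlated at 0.0057 over all tested genes. In the 5 genes, however, replicate 1 was higher in both groups. With the block the SE fell from 0.42 to 0.21 for RNU6ATAC and from 0.58 to 0.25 for VTRNA1-1. It fell from 0.54 to 0.36 for VTRNA1-2 and from 0.20 to 0.15 for VTRNA1-3, and rose from 0.11 to 0.18 for RN7SL1. The context lists held 10 to 16 genes at an unadjusted p-value below 0.05, against 13 (6 higher, 7 lower), and the 16 with library size in place of TMM were 11 higher and 5 lower. DESeq2 gave no adjusted p-value for VTRNA1-1 and VTRNA1-2. Scalings moved the median of all genes by less than 0.1 on the log2 scale.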
